A study of Mus with 7 samples.

Results

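The 10 genes examined here encode the cargo receptors and core markers of autophagy: the receptors Sqstm1, Nbr1 and Optn, the LC3 genes Map1lc3a and Map1lc3b, the GABARAP genes Gabarap, Gabarapl1 and Gabarapl2, the phagophore protein gene Wipi1 and the kinase gene Ulk1. They were selected by gene symbol from the 31053 genes of the deposited count files, and all 10 were found. The rule uses symbols and no measured value, but the set of genes was chosen with earlier results of these data known. Their mRNA was counted by single cell RNA sequencing (scRNAseq) in FLMs, self-renewing macrophages raised from the fetal livers of C57BL/6J mice and maintained in culture with 30 ng/mL GM-CSF. Con cells stood in medium with 10% fetal bovine serum and received neither fatty acid nor lipopolysaccharide (LPS), the bacterial cell wall component that activates the receptor TLR4. Veh cells spent 24 h in medium with 0.25% serum and 8.3 µM bovine serum albumin (BSA), the carrier protein for the fatty acid, and were then collected without LPS (Veh.LPS.0) or after 1 h or 4 h with 20 ng/mL LPS (Veh.LPS.1 and Veh.LPS.4). DHA cells went through the same steps with 25 µM of the omega-3 fatty acid docosahexaenoic acid (DHA) added on the same 8.3 µM of BSA, which gave DHA.LPS.0, DHA.LPS.1 and DHA.LPS.4. Con thus differed from every other library in serum, in BSA and in time in culture together. Each of the 7 conditions was represented by 1 library, so no difference between conditions had a replicate check within these counts.

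Autophagy encloses cytoplasmic cargo in a double membrane, the phagophore, which closes into an autophagosome and fuses with a lysosome. The ULK1 kinase starts the process, WIPI proteins bind phosphoinositides on the growing membrane, and small ubiquitin-like proteins of the ATG8 family, the LC3s and GABARAPs, are attached to its lipids. Cargo receptors such as p62, the product of Sqstm1, bind ubiquitin on the cargo with one domain and ATG8 proteins with another, and are degraded along with what they carry. p62 also binds KEAP1, the inhibitor of the transcription factor NRF2, and Sqstm1 is itself a known NRF2 target. In macrophages, TLR4 signaling is known to raise Sqstm1 mRNA. The counts here are of mRNA, and neither protein nor autophagic flux was measured.

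Barcodes with over 20000 unique molecular identifiers (UMIs), at least 2000 genes and under 20% mitochondrial UMIs were kept as cells, which left 692 to 3073 cells per library and 11640 in all, with median depths of 29369 to 56239 UMIs. The kept cells of a library summed to between 22045775 and 125716982 UMIs. A mitochondrial share of at least 20% was found in at least 74.4% of the barcodes of each DHA library, against 35.8% to 54.7% of those of the Veh libraries and 29.0% of those of Con. All 9 macrophage markers were present in each library and summed to 5817 to 7089 CPM (UMIs of a gene per 1000000 UMIs of the library), while the lists for neutrophils, mast cells, erythroid, stromal, dendritic and lymphoid cells each summed to at most 6.99 CPM. Hepatocyte markers summed to 5.48 to 7.71 CPM, nearly all of it Afp, with Alb and Ttr at 0 in every library. With no other cell type set apart among the cells, free RNA could not be measured beside the shares of cells with a UMI given below. Any 2 libraries shared between 1 and 22 cell barcodes, and at most 4 among kept cells. Levels are CPM over the summed UMIs of a library's kept cells. Their 95% intervals, and those of the ratios of CPM, are exact binomial intervals that cover counting error only.

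Sqstm1 (ENSMUSG00000015837; chromosome 11, 50200152 to 50210820, GRCm38), the gene for p62, was measured at 86.7 CPM in Con, 153 CPM in Veh.LPS.0, 286 CPM in DHA.LPS.0, 577 CPM in Veh.LPS.1, 887 CPM in DHA.LPS.1, 911 CPM in Veh.LPS.4 and then 1345 CPM in DHA.LPS.4. The order of the libraries in summed CPM thus followed the hour of LPS, with DHA above Veh at each hour and Con lowest. No 2 neighbours in this order had overlapping counting intervals, but these intervals leave out the spread among cells. The order of DHA.LPS.1 and Veh.LPS.4, at 887 and 911 CPM, is therefore not settled. Their medians per cell at equal depth, given below, ran the other way, at 16 UMIs in DHA.LPS.1 and 13 in Veh.LPS.4. From the lowest to the highest library the level differed 15.5-fold, and 98.7% of the 8628 genes with a mean of at least 5 CPM had a smaller range. Nbr1 (ENSMUSG00000017119; chromosome 11, 101552107 to 101581951), whose product is a second ubiquitin-binding receptor built on a similar plan, was at 14.5 CPM in Con, 20.0 CPM in Veh.LPS.0, 21.4 CPM in DHA.LPS.0, 18.1 CPM in Veh.LPS.1, 17.8 CPM in DHA.LPS.1, 13.8 CPM in Veh.LPS.4 and then 14.7 CPM in DHA.LPS.4. It was highest in the reduced-serum libraries without LPS and lowest in Veh.LPS.4, where its interval overlapped those of Con and DHA.LPS.4. The receptor gene Optn (ENSMUSG00000026672; chromosome 2, 5020521 to 5064399), for optineurin, gave 5 UMIs in the 11640 kept cells, among 466508896 UMIs. There were 2 of them in DHA.LPS.4, 1 each in Veh.LPS.4, Veh.LPS.1 and DHA.LPS.0, and none in the other 3 libraries, where the limit for a count of 0, taken as 3 UMIs of the library total, is 0.0943 CPM in the smallest. No ratio is given for Optn, which did not reach the mean of 5 CPM used for comparisons, so 9 of the 10 genes were compared.

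**Figure D1:**
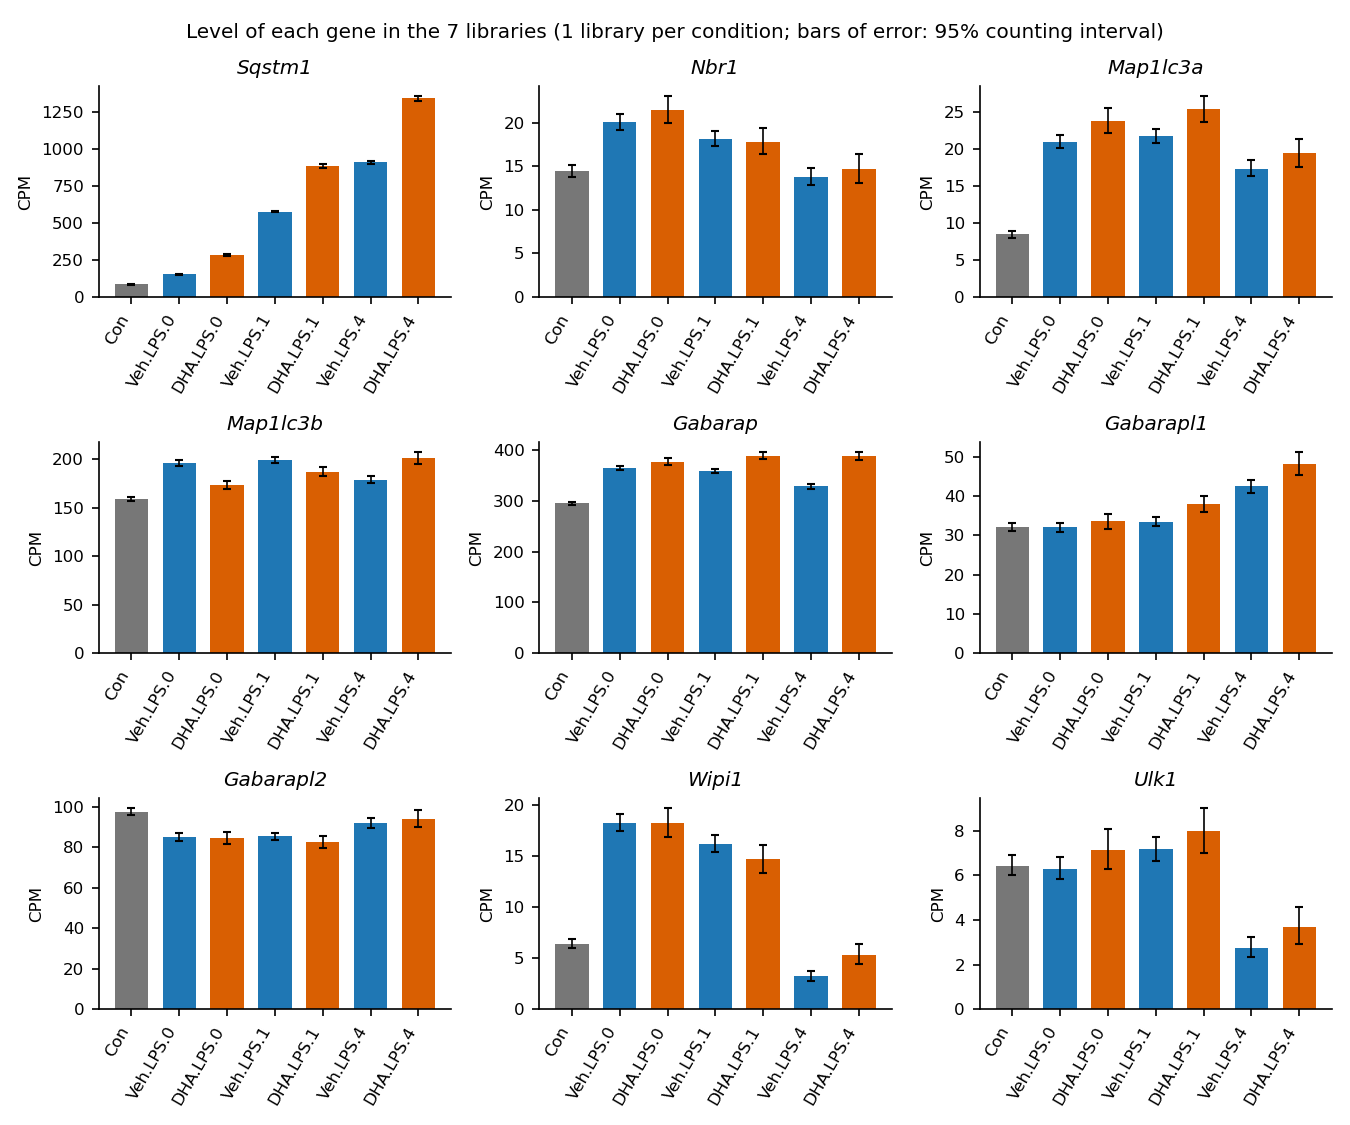
Level of 9 of the 10 genes (CPM, linear axis from 0, a separate scale for each gene) in the 7 libraries, with Con in grey, Veh in blue and DHA in orange. Error bars are 95% counting intervals of 1 library each. Sqstm1 climbs from 86.7 CPM in Con to 1345 CPM in DHA.LPS.4, Wipi1 and Ulk1 are lowest in Veh.LPS.4, and Gabarapl2 stays between 82.6 and 97.7 CPM.

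Of the LC3 genes, whose products mark autophagosome membranes, Map1lc3a (ENSMUSG00000027602; chromosome 2, 155276364 to 155278073) was at 8.46 CPM in Con, 20.9 CPM in Veh.LPS.0, 23.8 CPM in DHA.LPS.0, 21.7 CPM in Veh.LPS.1, 25.3 CPM in DHA.LPS.1, 17.3 CPM in Veh.LPS.4 and then 19.4 CPM in DHA.LPS.4. Con stood apart below the rest, and among the 6 reduced-serum libraries every pair of neighbours in level had overlapping intervals. Map1lc3b (ENSMUSG00000031812; chromosome 8, 121590438 to 121598760), the source of the LC3B protein commonly used to stain autophagosomes, was at 159 CPM in Con, 196 CPM in Veh.LPS.0, 173 CPM in DHA.LPS.0, 199 CPM in Veh.LPS.1, 187 CPM in DHA.LPS.1, 179 CPM in Veh.LPS.4 and then 201 CPM in DHA.LPS.4. Its highest and lowest libraries differed 1.27-fold, a smaller range than that of all but 6.19% of genes. In the annotation, Map1lc3b overlaps Zcchc14, Gabarapl1 overlaps 1700101I11Rik and Wipi1 overlaps Gm39442, so some reads of these 3 genes could come from the neighbour. The 5 ATG8 genes also form a family of related sequence, and how reads shared with a close copy were counted was not tested.

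The GABARAP branch acts beside the LC3s and is known for later steps, including autophagosome closure and fusion. Gabarap (ENSMUSG00000018567; chromosome 11, 69991370 to 69994949) was at 295 CPM in Con, 365 CPM in Veh.LPS.0, 377 CPM in DHA.LPS.0, 358 CPM in Veh.LPS.1, 389 CPM in DHA.LPS.1, 328 CPM in Veh.LPS.4 and then 388 CPM in DHA.LPS.4. Con was again lowest, and the DHA library was above the Veh library at each hour. Gabarapl1 (ENSMUSG00000030161; chromosome 6, 129533192 to 129542331) was at 32.1 CPM in Con, 32.0 CPM in Veh.LPS.0, 33.6 CPM in DHA.LPS.0, 33.5 CPM in Veh.LPS.1, 38.0 CPM in DHA.LPS.1, 42.5 CPM in Veh.LPS.4 and then 48.3 CPM in DHA.LPS.4. The 4 lowest of these could not be ordered within counting error, and the 2 libraries with 4 h of LPS were highest. Gabarapl2 (ENSMUSG00000031950; chromosome 8, 111940703 to 111952915) was the steadiest of the 9 genes, at 97.7 CPM in Con, 85.2 CPM in Veh.LPS.0, 84.5 CPM in DHA.LPS.0, 85.4 CPM in Veh.LPS.1, 82.6 CPM in DHA.LPS.1, 91.8 CPM in Veh.LPS.4 and then 94.2 CPM in DHA.LPS.4. Only 1.84% of genes had a smaller range than its 1.18-fold.

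Wipi1 (ENSMUSG00000041895; chromosome 11, 109573521 to 109611389), which encodes a protein that binds phosphatidylinositol 3-phosphate on the phagophore, was at 6.40 CPM in Con, 18.3 CPM in Veh.LPS.0, 18.2 CPM in DHA.LPS.0, 16.2 CPM in Veh.LPS.1, 14.7 CPM in DHA.LPS.1, 3.24 CPM in Veh.LPS.4 and then 5.35 CPM in DHA.LPS.4. It was high in the 4 reduced-serum libraries with no LPS or 1 h of it, and low in Con and after 4 h. Its 5.63-fold range was larger than that of 94.0% of genes. Ulk1 (ENSMUSG00000029512; chromosome 5, 110784489 to 110810120), the kinase gene that opens the pathway, was at 6.44 CPM in Con, 6.31 CPM in Veh.LPS.0, 7.14 CPM in DHA.LPS.0, 7.17 CPM in Veh.LPS.1, 7.98 CPM in DHA.LPS.1, 2.76 CPM in Veh.LPS.4 and then 3.67 CPM in DHA.LPS.4. The 2 libraries with 4 h of LPS stood below the other 5 for Ulk1, and neighbours within each of those sets had overlapping intervals.

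With 24 h of reduced serum and BSA, 3 of the 9 genes were higher by more than 1.5-fold in Veh.LPS.0 than in Con and none was lower. Calls here and below are by size alone, and the comparisons share libraries, since Veh.LPS.0 enters 4 of them. Wipi1 had the largest ratio, 2.86 (interval 2.63 to 3.11), followed by Map1lc3a at 2.48 (2.30 to 2.67) and Sqstm1 at 1.76 (1.72 to 1.81). Of all 8625 genes compared, 17.6% passed the limit, 10.3% higher and 7.3% lower. Nbr1 had a ratio of 1.39, Map1lc3b 1.23 and Gabarap 1.24, while Gabarapl1 and Ulk1 had ratios of 0.999 and 0.979 with intervals that held 1 and Gabarapl2 had 0.872. The median log2 ratio was 0.31 over the 9 genes and -0.05 over all genes. The libraries also differed in proliferation: at most 1 UMI of Mki67 and Top2a together was found in 9.01% of Con cells and 22.0% of Veh.LPS.0 cells, after each cell was thinned to 20000 UMIs. Within such cells, the log2 ratio of Sqstm1 was 0.58, just under the limit, Map1lc3a and Wipi1 were again past it, and Ulk1 was lower past it.

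**Figure D2:**
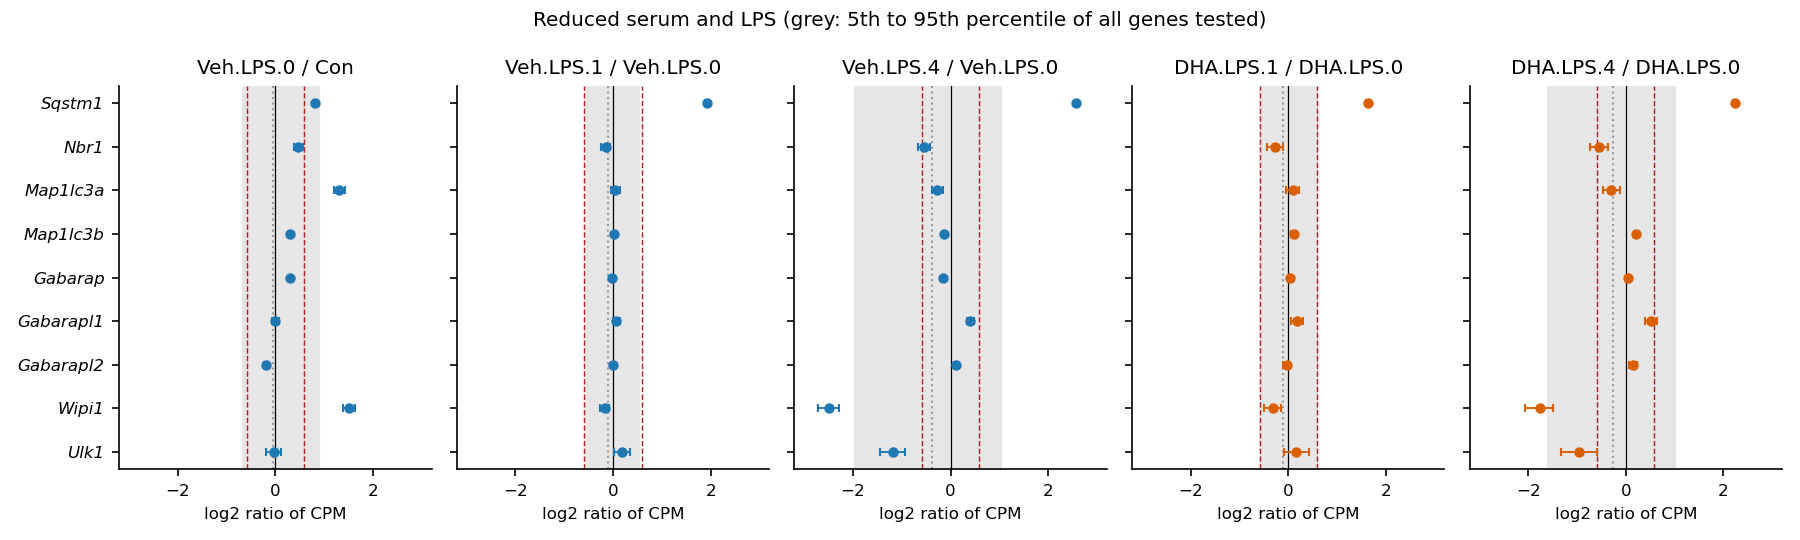
Log2 ratio of CPM (horizontal axis) of the 9 genes in 5 comparisons, Veh.LPS.0 over Con and each LPS library over the 0 h library of its treatment, with 95% counting intervals. The grey band spans the 5th to 95th percentile of all genes compared, the dotted line is their median and the dashed red lines mark 1.5-fold. Sqstm1 lies to the right of the band in all 4 LPS comparisons, Wipi1 lies to its left in both 4 h comparisons, and Map1lc3a and Wipi1 lie to its right for reduced serum.

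After 1 h of LPS, Sqstm1 was the only one of the 9 genes past 1.5-fold, with and without DHA. Its ratio was 3.78 (3.71 to 3.85) for Veh.LPS.1 over Veh.LPS.0, higher than 98.9% of genes, where 8.82% of all genes passed the limit, 4.54% higher and 4.28% lower. For DHA.LPS.1 over DHA.LPS.0 the ratio was 3.1 (3.03 to 3.17), and 9.71% of all genes passed the limit, 5.15% higher and 4.57% lower. With TMM, the higher share of the genes past the limit went from 51.5% to 63.1% in Veh and from 53.0% to 68.6% in DHA. The other 8 genes had ratios between 0.887 (Wipi1) and 1.14 (Ulk1) in Veh, and between 0.805 (Wipi1) and 1.13 (Gabarapl1) in DHA. Gabarap was at 0.982 in Veh and 1.03 in DHA, and with scaling by TMM or median-of-ratios size factors its Veh ratio lay above 1. Within cells with at most 1 UMI of Mki67 and Top2a, the log2 ratio of Sqstm1 was 1.56 in Veh and 1.31 in DHA. In all kept cells it was 1.92 and 1.63.

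After 4 h of LPS, Sqstm1 was higher still while Wipi1 and Ulk1 were lower, in both treatments. In Veh the ratio of Sqstm1 over the 0 h library was 5.96 (5.85 to 6.07), that of Wipi1 0.178 (0.152 to 0.206) and that of Ulk1 0.438 (0.366 to 0.522). These 3 of 9 stood beside 48.9% of all genes past the limit, 9.74% higher and 39.2% lower. In DHA the same 3 genes passed, with Sqstm1 at 4.70 (4.59 to 4.81), Wipi1 at 0.293 (0.239 to 0.358) and Ulk1 at 0.515 (0.396 to 0.664), where 42.7% of all genes passed, 10.1% higher and 32.5% lower. Among all genes, 1.68% had a lower ratio than Wipi1 in Veh and 3.57% in DHA, against 16.7% and 17.5% for Ulk1. Cells with at most 1 UMI of Mki67 and Top2a were 22.0% of Veh.LPS.0 and 65.5% of Veh.LPS.4. In DHA they were 39.1% at 0 h and 57.9% at 4 h. Within them the log2 ratio of Sqstm1 was 1.77 in Veh and 1.88 in DHA, against 2.58 and 2.23 in all kept cells. The 3 calls stayed in both treatments, and Nbr1 was also lower past the limit in Veh. The part of proliferation in these ratios was not tested.

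Levels at 4 h depend on the scaling, since the median log2 ratio of all genes was -0.38 in Veh and -0.27 in DHA with library totals and 0.05 and 0.03 with TMM. Under TMM the genes past the limit split into 20.7% higher and 21.6% lower in Veh, and 19.1% higher and 19.9% lower in DHA. Sqstm1 and Wipi1 kept their calls under TMM and size factors in both treatments. Ulk1 was also past 1.5-fold under both, with log2 ratios of -0.76 (TMM) and -0.74 (size factors) in Veh and -0.66 and -0.62 in DHA. With size factors, though, its scaled mean fell below the limit of 5 set for comparisons, so that it was not counted. Gabarapl1, with ratios of 1.33 in Veh and 1.44 in DHA, passed 1.5-fold under both. Map1lc3b and Gabarap were at 0.913 and 0.901 in Veh, and Map1lc3a was at 0.827 in Veh and 0.814 in DHA. All 4 of these ratios lay above the median of all genes except that of Map1lc3a in DHA, and all 4 passed to above 1 with TMM and with size factors. Nbr1 was at 0.689 in Veh and 0.683 in DHA, below the median gene in both.

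DHA was set against Veh at each hour to ask what the fatty acid changed. Without LPS, Sqstm1 was higher with DHA than with Veh, 286 against 153 CPM, a ratio of 1.87 (1.82 to 1.92) that exceeded those of 99.5% of genes. Sqstm1 was the only one of the 9 genes past the limit, where 2.39% of all genes passed, 1.29% higher and 1.1% lower. The paper had already reported Sqstm1 as higher with DHA at 0 h from these libraries. It also found Sqstm1 higher with DHA by quantitative PCR of bulk RNA from parallel treatments. At 1 h of LPS the ratio was 1.54 (1.51 to 1.56), again for Sqstm1 alone, with 3.55% of all genes past the limit, 1.55% higher and 1.99% lower. At 4 h it was 1.48 (1.45 to 1.5), just inside the limit, and above the ratios of 95.5% of genes. On the log2 scale, the DHA difference of Sqstm1 was 0.34 smaller at 4 h than at 0 h (interval of the change -0.38 to -0.30, counting error only). Within cells with at most 1 UMI of Mki67 and Top2a, though, the ratio was larger at 4 h than at 0 h, 1.65 against 1.54. In each of the other ranges of kept cells given below it was smaller at 4 h.

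**Figure D3:**
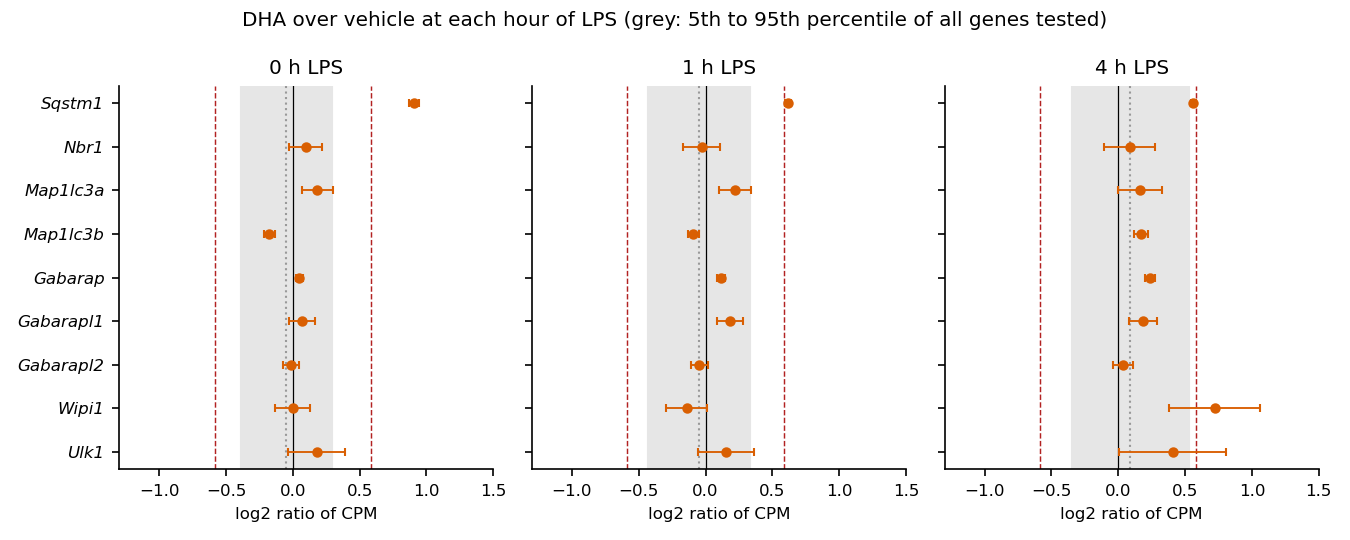
Log2 ratio of CPM (horizontal axis) of DHA over Veh for the 9 genes at 0, 1 and 4 h of LPS, with 95% counting intervals. The grey band spans the 5th to 95th percentile of all genes compared, the dotted line is their median and the dashed red lines mark 1.5-fold. Sqstm1 lies right of the band at each hour, and Wipi1 passes 1.5-fold at 4 h, with a wide interval.

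The ATG8 genes differed little between DHA and Veh. At 0 h their ratios ran from 0.884 (0.859 to 0.910) for Map1lc3b to 1.14 (1.05 to 1.23) for Map1lc3a, and at 1 h from 0.939 (0.912 to 0.967) to 1.17 (1.07 to 1.27) for the same genes. At 4 h they ran from 1.03 (0.974 to 1.08) for Gabarapl2 to 1.18 (1.15 to 1.21) for Gabarap, and Map1lc3b was now at 1.13 (1.09 to 1.17). Nbr1 had ratios of 1.07, 0.982 and 1.06 at 0, 1 and 4 h, and each interval held 1.

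Wipi1 had a ratio of DHA over Veh of 0.999 (0.911 to 1.09) without LPS, and was at 0.906 (0.815 to 1.01) after 1 h. At 4 h it was higher with DHA, 5.35 against 3.24 CPM, a ratio of 1.65 (1.30 to 2.09) that rested on 118 and 190 UMIs, and 6.14% of all genes passed the limit at that hour, 3.98% higher and 2.17% lower. It was the only one of the 9 genes past the limit at 4 h. Ulk1 had ratios of 1.13, 1.11 and 1.33 at the 3 hours, the last of these with an interval of 1.01 to 1.75 from 81 and 162 UMIs. All 9 ratios were above 1 at 4 h, where the median log2 ratio of all genes was 0.09 with library totals and -0.03 with TMM. Those of Nbr1 (with TMM) and Gabarapl2 (with TMM and size factors) then lay below 1, and the higher share of all genes past the limit went from 64.7% to 41.8% with TMM.

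Sqstm1 levels spread widely from cell to cell. In cells thinned to 20000 UMIs, its median was 1 UMI per cell in Con, 2 in Veh.LPS.0, 3 in DHA.LPS.0, 10 in Veh.LPS.1, 16 in DHA.LPS.1, 13 in Veh.LPS.4 and 24 in DHA.LPS.4. The 90th percentile was 4, 6, 14, 22, 33, 38 and 50 UMIs in the same order. Its variance was 4.10 to 15.0 times its mean over the 7 libraries, while this ratio lay between 0.979 and 2.02 for the other 8 genes. The ratio depends on the mean and stays near 1 for genes with few UMIs per cell, so it does not rank the genes by spread. Gabarap was better counted than Sqstm1 in Con, with means of 5.90 and 1.75 UMIs per cell. Its ratio there was 1.56, against 4.10 for Sqstm1. A Sqstm1 UMI was found in 74.7% of thinned Con cells, 81.1% of Veh.LPS.0, 87.5% of DHA.LPS.0 and at least 99.3% of the cells of each LPS library. Without thinning these shares were 91.0%, 92.2%, 97.6% and at least 99.7%. Gabarap UMIs were found in at least 99.7% of the thinned cells of every library and Map1lc3b UMIs in at least 95.4%. Wipi1 UMIs were found in 29.2% of thinned Veh.LPS.0 cells, 4.93% of Veh.LPS.4 and 9.83% of DHA.LPS.4.

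**Figure D4:**
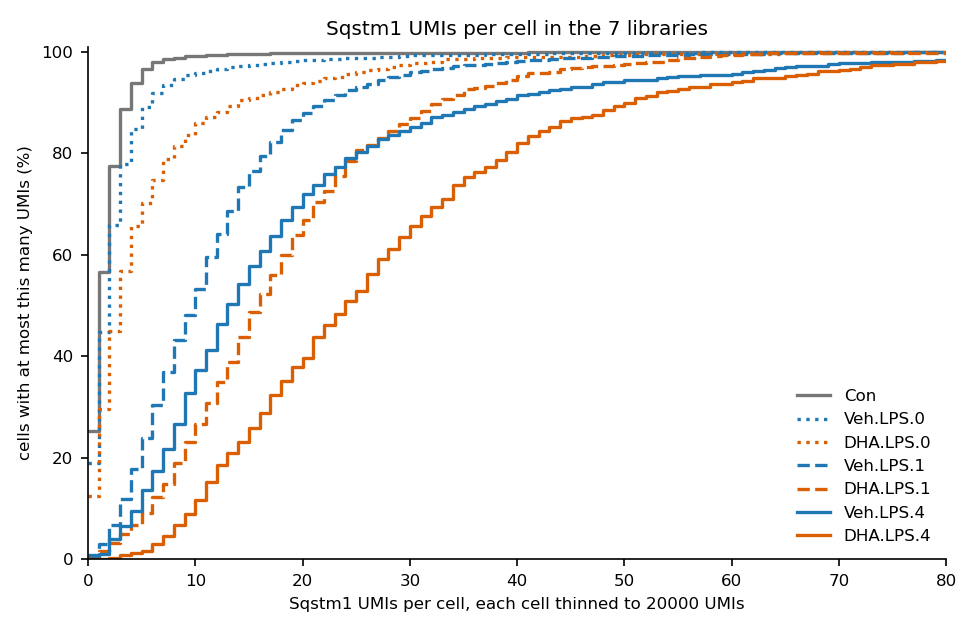
Share of cells (vertical axis, percent) with at most the number of Sqstm1 UMIs on the horizontal axis, each cell thinned to 20000 UMIs, for the 7 libraries (Con grey, Veh blue, DHA orange, with dotted, dashed and solid lines for 0, 1 and 4 h of LPS). At each hour the DHA line lies to the right of the Veh line over most of its course, and medians run from 1 UMI in Con to 24 in DHA.LPS.4.

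Without LPS, the distribution of Sqstm1 over cells was shifted upward with DHA. No Sqstm1 UMI was found in 18.9% of thinned Veh.LPS.0 cells and 12.5% of DHA.LPS.0 cells. More than 6 UMIs, the 90th percentile of Veh.LPS.0, were found in 7.98% of Veh.LPS.0 cells (198 of 2481, interval 6.94 to 9.12) and 25.2% of DHA.LPS.0 cells (176 of 698, interval 22.0 to 28.6). The share was 69.6% in Veh.LPS.1, 87.7% in DHA.LPS.1, 82.6% in Veh.LPS.4 and 97.1% in DHA.LPS.4, and 57 of 2908 Con cells passed.

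Among the other genes, few were seen to go with Sqstm1 from cell to cell, but low counts limit what could be seen. In the cells with more than 6 Sqstm1 UMIs, Gabarap was at 1.24 times its level in the other cells of Veh.LPS.0 (1.18 to 1.30) and at 1.35 times in DHA.LPS.0 (1.28 to 1.44). Map1lc3a was at 1.22 times in Veh.LPS.0 (0.982 to 1.51) and 1.83 times in DHA.LPS.0 (1.45 to 2.29). Nbr1 was at 1.40 times (1.14 to 1.72) in Veh.LPS.0 and 0.894 times (0.664 to 1.19) in DHA.LPS.0, so its direction was not shared. Hmox1, for heme oxygenase and a target of NRF2, was at 2.84 times in Veh.LPS.0 and 3.06 times in DHA.LPS.0. Gclm, another NRF2 target, was at 1.75 and 1.69 times. Across a library's cells, Pearson's r of thinned UMI counts with Sqstm1 was 0.32 to 0.54 for Hmox1 and 0.08 to 0.33 for Gabarap. It was 0.07 to 0.36 for Gclm, 0.31 to 0.64 for Plin2 and 0.30 to 0.62 for the ferritin gene Ftl1. The values of Hmox1 were thus not particular to it, nor shared by Gclm. The counts were not put on a log scale, so cells with many UMIs weigh most. Each r rests on 692 to 3073 cells that share 1 library and its depth. For the other 7 autophagy genes compared, r ran from -0.06 to 0.28, the highest value being that of Nbr1 in 1 library. Values as weak as those of Gabarap and these 7 genes are descriptions only. Wipi1 and Ulk1 had means of at most 0.367 and 0.152 UMIs per thinned cell, and counts this low hold r near 0. A low r thus cannot show that such genes did not follow Sqstm1. Cells rich in Sqstm1 were poorer in Mki67, at 0.631 times the level of other cells in Veh.LPS.0 and 0.278 times in DHA.LPS.0, and richer in the lipid droplet gene Plin2, at 2.84 and 4.09 times. Whether proliferation or lipid loading had a part in the Sqstm1 level was not tested.

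Because the DHA libraries had lost more barcodes to the mitochondrial limit, differed in depth and held other shares of cells low in Mki67 and Top2a (39.1% of cells against 22.0% in Veh at 0 h, 39.7% against 25.2% at 1 h and 57.9% against 65.5% at 4 h), Sqstm1 was compared within ranges of each. The DHA over Veh ratio was above 1 in each of the 7 ranges at each hour, at 1.32 to 2.18 without LPS, 1.29 to 1.87 at 1 h and 1.26 to 1.70 at 4 h. At 0 h it was 1.94 in cells under 10% mitochondrial UMIs and 1.32 (1.20 to 1.45) in those from 10% to under 20%, with 75 DHA cells in the latter. Cells with at most 1 UMI of Mki67 and Top2a gave 1.54, with 434 against 282 CPM, and the others gave 1.68, with 201 against 120 CPM. At 1 h the same split gave 1.29 and 1.53, and at 4 h it gave 1.65 and 1.26. In barcodes with at least 20% mitochondrial UMIs, which are left out elsewhere, the ratio was 1.08 (1.00 to 1.16) at 0 h, 1.28 at 1 h and 1.10 at 4 h. With every barcode of the files included, the log2 ratio was 0.44, 0.26 and 0.08 at the 3 hours, under the limit at each. Most other genes of the set were lower too. At 0 h Gabarap went from 0.05 to -0.39 and Gabarapl2 from -0.01 to -0.37, where Sqstm1 went from 0.90 to 0.44. Nbr1 went the other way at 4 h, from 0.09 to 0.39. The median of all genes with every barcode is not given, so these values cannot show that the Sqstm1 difference was lost. The part that the loss of barcodes had in these differences was not tested.

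**Figure D5:**
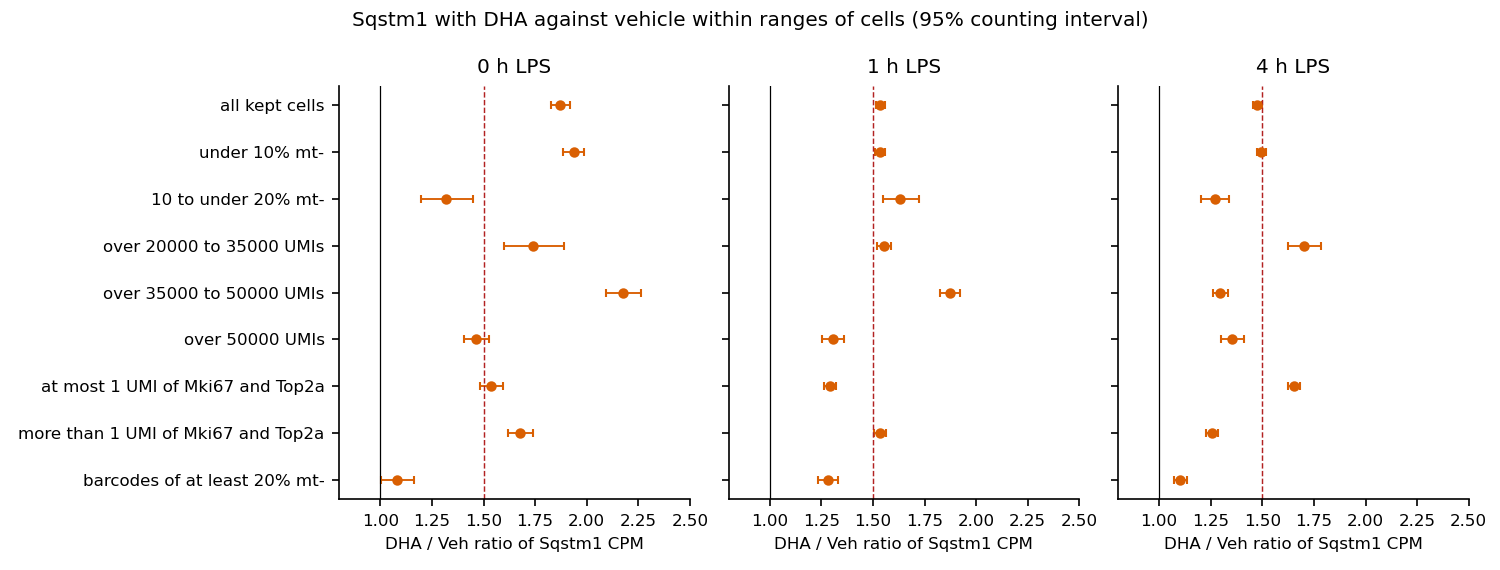
Ratio of Sqstm1 CPM of DHA over Veh (horizontal axis, linear) at 0, 1 and 4 h of LPS in all kept cells, in 7 ranges of mitochondrial share, depth and proliferation genes, and in barcodes of at least 20% mitochondrial UMIs, with 95% counting intervals. The solid line marks a ratio of 1 and the dashed line 1.5. All ranges of kept cells lie above 1, from 1.26 to 2.18, and the high-mitochondrial barcodes lie lowest at each hour, from 1.08 to 1.28.

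The same ranges were applied to Wipi1 at 4 h, where its DHA over Veh ratio ran from 1.20 to 2.47. The lowest value rested on 9 UMIs against 20 (interval 0.480 to 2.75). The highest rested on 71 against 5 (1.01 to 7.84). For Map1lc3b the ratio lay from 0.852 to 0.917 at 0 h and from 1.01 to 1.33 at 4 h. Gabarap had ratios of 1.15 to 1.38 at 4 h. With every barcode included, the log2 ratio of Wipi1 at 4 h was 0.27, under the limit. Those of Map1lc3b and Gabarap were -0.19 and -0.22. Within barcodes of at least 20% mitochondrial UMIs, which were 54.7% of Veh.LPS.4 and a larger share of DHA.LPS.4, their ratios at 4 h were above 1, at 1.19 (1.11 to 1.27) for Map1lc3b and 1.17 (1.11 to 1.24) for Gabarap.

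A further 54 genes of the pathway and its regulators gave the surroundings, of which 50 reached the mean of 5 CPM. With reduced serum, 4 of the 50 were higher past 1.5-fold and none lower, beside 10.3% and 7.3% of all genes. Among them were the mitophagy receptor genes Bnip3, which went from 42.6 to 99.1 CPM, and Bnip3l, from 64.5 to 114 CPM. The other 2 were Wdr45, a relative of Wipi1, and Retreg1, a receptor for endoplasmic reticulum, which lay within the limit with TMM and size factors. After 1 h of LPS in Veh, only Tfe3, a transcription factor for lysosomal and autophagy genes, was higher (29.9 to 53.4 CPM), and only Rubcn, for the inhibitor Rubicon, was lower (7.40 to 4.27 CPM). In DHA, 2 of the 50 were higher at this hour, Tfe3 and the WIPI relative Wdr45b, and none lower. All genes had 4.54% higher and 4.28% lower in Veh, and 5.15% and 4.57% in DHA.

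After 4 h of LPS in Veh, 2 of the 50 genes were higher and 20 lower with library totals, but 9 were higher and 6 lower with TMM. Of all genes, 9.74% were higher and 39.2% lower with library totals, and 20.7% and 21.6% with TMM. With library totals, the count of lower genes in Veh thus lay near the share over all genes, while that of higher genes lay below it. In DHA the counts were 3 higher and 14 lower, beside 10.1% and 32.5% of all genes, and 10 and 5 with TMM, beside 19.1% and 19.9%. The group median was -0.44 on the log2 scale in Veh beside -0.38 for all genes, and -0.14 beside -0.27 in DHA. Tfeb, a master regulator of autophagy and lysosome genes, had the largest difference and was lower under each scaling in both treatments, going from 10.3 to 1.28 CPM in Veh and from 8.99 to 1.09 CPM in DHA. Plekhm1, which links autophagosomes to lysosomes, was at 0.337 times its 0 h level in both treatments, and Rubcn was at 0.357 and 0.436 times. Wipi2, a relative of Wipi1, and Wdfy3 went the other way, higher past the limit under each scaling in both treatments.

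Between DHA and Veh, none of the 50 genes passed the limit at 0 h, and at 1 h and 4 h the only one that did was Bnip3, where 2.39%, 3.55% and 6.14% of all genes passed at the 3 hours. Its level was 137 against 89.3 CPM at 1 h, a ratio of 1.54 (1.48 to 1.59), and 82.6 against 44.7 CPM at 4 h, a ratio of 1.85 with a lower bound of 1.74. Their median log2 ratio was 0.00 at 0 h, -0.01 at 1 h and 0.15 at 4 h, beside -0.05, -0.05 and 0.09 for all genes.

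Sqstm1 has known ties to the KEAP1 and NRF2 system, whose genes were set beside it. Nfe2l2, the gene for NRF2, ranged from 75.1 to 98.4 CPM and passed the limit in no comparison. Keap1 had 58.5 CPM in Con. From 0 h to 4 h of LPS it had 49.7, 37.7 and 26.3 CPM with Veh and 47.0, 35.5 and 28.6 CPM with DHA, and its lower 4 h levels passed the limit with library totals but not with TMM. Hmox1 had 61.8 CPM in Con, and over the same hours 71.0, 108 and 118 CPM with Veh and 172, 275 and 304 CPM with DHA. Its DHA over Veh ratio was 2.42 (2.34 to 2.51) at 0 h, 2.54 (2.47 to 2.62) at 1 h and 2.58 (2.5 to 2.67) at 4 h, where that of Sqstm1 ran from 1.87 to 1.48. Of 8 NRF2 targets listed, 7 were compared. The list was chosen with earlier results known, and the paper had already reported Sqstm1, Hmox1 and Gclm as higher with DHA at 0 h. Of the 7, 3 were higher past the limit with DHA at 0 h (Hmox1, Gclm and Srxn1), 1 at 1 h (Hmox1) and the same 3 at 4 h. Of all genes, 1.29%, 1.55% and 3.98% were higher past it at these hours. All 7 targets had ratios above 1 at each hour. With reduced serum, where Sqstm1 was higher, 3 of the 7 were lower (Gclm, Gclc and Txnrd1) and none higher, beside 7.3% and 10.3% of all genes. Gclm was at 198 CPM in Con and 75.1 CPM in Veh.LPS.0. After 1 h of LPS 4 of the 7 were higher in each treatment, beside 4.54% of all genes in Veh and 5.15% in DHA. Their ratios in Veh included 2.91 for Slc7a11, 2.86 for Srxn1 and 2.37 for Txnrd1. With 4 h of LPS 5 of the 7 were higher in each treatment, beside 9.74% of all genes in Veh and 10.1% in DHA. They were led by Slc7a11, a cystine transporter gene, at 9.25 times its 0 h level in Veh and 7.61 times in DHA.

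Over the 7 libraries, the genes whose profile of log2 CPM was closest to that of Sqstm1 among 8593 genes were Cdc42ep2, Clec4e, Stk40, Malt1 and Zc3h12c, with root mean square differences of 0.21, 0.33, 0.40, 0.45 and 0.45. Cdc42ep2 had 2.91 CPM in Con, and from 0 h to 4 h of LPS 4.92, 16.9 and 27.2 CPM with Veh and 6.39, 25.2 and 49.2 CPM with DHA. Clec4e, a macrophage lectin receptor gene, had 122 CPM in Con, followed by 166, 617 and 1211 CPM with Veh and 231, 660.0 and 1751 CPM with DHA. Both followed the order of Sqstm1 across serum, LPS and DHA, as did Stk40, whereas Malt1 and Zc3h12c were lower with DHA than with Veh at each hour. The differences of Zc3h12c were small, with Veh against DHA at 17.6 and 17.3, 53.1 and 50.1, and 94.2 and 91.9 CPM. No interval is given for these. For the other genes the closest was Gpi1 to Nbr1 (0.03), Malat1 to Map1lc3a (0.09), Otud7b to Map1lc3b (0.05), Nf1 to Gabarap (0.04), Msn to Gabarapl1 (0.05), Ptp4a2 to Gabarapl2 (0.02), Hacd4 to Wipi1 (0.13) and Eps8 to Ulk1 (0.07). A small difference is easily reached for a gene that varied little, so these values do not rank the genes.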

How the data were processed

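The authors made 10x Genomics 3′ scRNAseq libraries and deposited, per sample, Cell Ranger counts of UMIs per gene and barcode, not normalized and before their filter on cells. The file headers and the submitters' processing notes name Cell Ranger 3.1.0, another version than the paper's methods, and build mm10. From these deposited counts, barcodes with over 20000 UMIs, at least 2000 genes and under 20% mitochondrial UMIs were kept, the limits of the study's methods, and UMIs were summed per gene and library to CPM. Doublets were not removed, and an alternative left out the deepest 5% of cells in each library. With 1 library per condition there is no test, and genes were called by size past 1.5-fold among those with a mean of at least 5 CPM. Ratios carry exact binomial (Clopper-Pearson) 95% intervals on the summed UMIs, and the change of a ratio between hours a normal interval on the log scale. Both cover counting error only, and the summed UMIs, from 22045775 to 125716982 per library, set their width. For values per cell, each cell was thinned to 20000 UMIs. Python 3.11.15 (numpy 2.4.6, scipy 1.17.1, pandas 2.3.3) was used, with TMM factors from edgeR 4.0.16 and size factors from DESeq2 1.42.0 in R 4.3.3 as alternative scalings. The ratio intervals were tested only on simulated sums drawn independently for each gene, which leave out the spread among cells. Alternatives changed the scaling, the cell and gene filters, the fold limit and the cells included. The 10 genes, the pathway lists and the split by Sqstm1 UMIs were chosen with earlier results of these data known. Of the pathway lists, the genes named were those past 1.5-fold and farthest from 0, at most 4 per comparison. Keap1, Nfe2l2 and Hmox1 were named throughout. Wdr45, Retreg1, Wdr45b, Gclc, Plin2, Ftl1, Wipi2, Wdfy3 and, at 1 h and in DHA, Rubcn were named after their values were seen. So was Gclm where cells rich in Sqstm1 were described. Profiles were compared among genes with at least 30 UMIs in each library. Gene positions come from a RefSeq table of GRCm38.p6, the build of mm10. Protein and promoter sequences were not used here.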

Additional observations from a re-analysis of the deposited data

Results flagged for a closer look

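Map1lc3b had opposite directions in the same contrast at different hours or in the other treatment. Its log2 ratio of DHA over Veh was -0.18 at 0 h, -0.09 at 1 h and 0.17 at 4 h, so that the 4 h value was 0.348 above that at 0 h and 0.261 above that at 1 h. With every barcode included these values were -0.53, -0.47 and -0.19, all below 0. At 4 h, though, the ratio was above 1 both in kept cells, at 1.13, and in barcodes past the mitochondrial limit, at 1.19 (1.11 to 1.27). The pooled value at 4 h lay below 0 all the same, so it cannot show that the directions of Map1lc3b were alike. Equally, its log2 ratio of 4 h of LPS over 0 h was -0.13 in Veh and 0.22 in DHA, a difference of 0.348 made of the same 4 libraries. With TMM and size factors the Veh value was above 0, so the opposition between treatments was lost. Gabarap had a log2 ratio of -0.03 in Veh and 0.04 in DHA for 1 h of LPS, a difference of 0.069, and its Veh value was above 0 with TMM and size factors. None of these differences was tested, since each direction rests on 1 library per condition.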

How the results depend on the processing

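Under the 13 alternatives, 90 of 104 counts of genes past the limit stayed within 1.5 times that reported. Under the 9 of them that change the log2 ratios, no gene that was past the limit reversed its direction. Changes of direction inside the limit were not counted as reversals. Of all 648 log2 ratios of single genes, 177 moved by more than their counting interval. With the limit lowered to a level 25% higher in either library there were 5 genes past it for 4 h of LPS in Veh and also in DHA, and 3 for DHA over Veh at 4 h. The share of all genes past this lower limit is not given here. Past 1.5-fold it was already 48.9% in Veh and 42.7% in DHA for 4 h of LPS, and 6.14% for DHA over Veh at 4 h. Shares of all genes are not given for the counts that follow either, so these describe the calls only. A 2-fold limit gave 0 genes for DHA over Veh at each of the 3 hours. With all barcodes, DHA over Veh gave 0 genes at 0 h and 0 at 4 h; at 1 h it gave 1 gene, but that was Wipi1, lower with DHA, and not Sqstm1. In cells with at most 1 UMI of Mki67 and Top2a the count for DHA over Veh was 0 at 1 h and 2 at 4 h. At 4 h it was also 2 with the mean over thinned cells and without the deepest 5% of cells, Sqstm1 passing beside Wipi1 in these 3 cases. It was 2 with no filter on low values, where Optn entered on 2 UMIs against 1, and 0 where a gene needed UMIs in 25% of cells in either library, which left out Wipi1. The log2 ratio of Sqstm1 for DHA over Veh ran from 0.44 to 0.97 at 0 h, 0.26 to 0.65 at 1 h and 0.08 to 0.73 at 4 h, lowest with all barcodes each time. Most of the other genes compared also had their lowest DHA over Veh ratio with all barcodes. No paired analysis was possible because each condition has 1 library, and for that reason no replicate could be left out. Depth limits Optn, at 5 UMIs in all, and at 4 h Wipi1 and Ulk1, at 81 to 190 UMIs.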
